A study of Danio rerio with 96 samples.

Results

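Zebrafish embryos pooled by 20 and labelled with the same exposure were compared between RNA extracted on 15 December and RNA extracted on 23 and 24 November. The samples were selected by their labels, in a choice made with earlier results of these data known. They were 8 pools of the December extraction batch and 16 pools of both November batches (8 each), 24 of the series' 96 samples. Every sample was a pool of 20 whole embryos kept in 0.1% dimethyl sulfoxide (DMSO, the solvent used as vehicle control in chemical testing) for 5 days from 4 to 9 November, up to 120 hours post fertilization, and no sample received another chemical. By the labelled dates, RNA was extracted 36 days after the end of the exposure in December, and 14 and 15 days after it in November. The sources used here do not say how embryos were kept in between. Among the pools of 20 each date is 1 extraction batch, and by the labelled library wells and index sequences also 1 column of wells and 1 index, so date, batch, well column and index cannot be told apart, and the December extraction has no second batch. Separate dishes or parents are not labelled for the samples within a batch. P-values over single samples therefore set a difference only against the spread among these samples, which may be partly technical.

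Expression was measured with TempO-Seq, in which neighbouring pairs of detector oligonucleotides anneal to a short stretch of a target RNA, are ligated only when both are in place, and are then amplified and counted. The assay thus reads a fixed panel of targets and not whole transcripts. At this stage a zebrafish larva has a beating heart, a liver, a gut and a nervous system, and whole-body RNA mixes all of them. In such bulk samples fewer cells of a type and less RNA per cell cannot be told apart. The deposited count table pairs its rows with no gene or probe name, so each target is named by the number of its row (the uppermost is 1), and no gene list, pathway or tissue marker could be examined, nor the labelled tissue checked against markers.

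Total counts ran from 4170204 to 5779876 in the 8 December samples and from 3791022 to 5870280 in the 16 November samples (exact two-sided permutation p = 0.501, Benjamini-Hochberg adjusted over 3 sample measures 0.501). A count of 0 in these libraries allows up to 3 counts, which is 0.511 to 0.791 CPM (counts scaled to library size), for counting error only. No pair of libraries within a batch agreed within sampling noise: chi-square values were 6.1 or more per degree of freedom over 84 such pairs.

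With single samples as the replicates, the December batch differed from the November batches in most rows tested. Far fewer rows were called with the batch as the replicate, as given below. Of 3039 rows tested, 1827 (60.1%) differed between December and November at an adjusted p below 0.05, which is meant by "called" from here on: 858 were higher (28.2%) and 969 lower (31.9%) in December. The test was edgeR's quasi-likelihood test with the extraction batch as a term, so that December was set against the mean of both November batches. The median absolute log2 fold change over all rows was 0.33. Called falls were larger than called increases, with medians of -0.74 and 0.41 on the log2 scale, and 308 rows fell by more than 2-fold while 102 rose by more than 2-fold. The split of higher and lower rows depended on the scaling. With library totals in place of TMM factors the median log2 change moved by -0.27 and 2083 rows were called, 366 higher and 1717 lower.

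The November batches also differed from each other. Between 24 and 23 November 1265 rows were called (41.6%), with a median absolute log2 change of 0.27. December differed from the 23 November batch in 1521 rows (50%, median 0.33) and from the 24 November batch in 1882 rows (61.9%, median 0.39). A row was counted as beyond both November batches when it was called against each of them in the same direction as well as against their mean. There were 1065 such rows (35%), 516 higher and 549 lower in December. In 260 rows (8.56%) the 8 December samples did not overlap the 16 November samples at all, 180 higher and 80 lower.

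With the extraction batch itself as the replicate, December is 1 unit against 2, which leaves 1 residual degree of freedom on batch sums. That degree of freedom came from the 2 November sums alone, so calls on batch sums rest on spread estimates shared across rows. They cannot show how far December batches would vary. The limma fit with the batch as a random effect took its degrees of freedom from single samples instead. It used 1 correlation within batches, 0.333, for all rows. With 1 December batch, the spread between batches could be learned only from November. Its calls are thus not calls with the batch as the replicate. On the 3 batch sums edgeR called 201 of the 3039 rows (534 at an unadjusted p under 0.05), and limma called 343 (758 unadjusted) when the batch entered as a random effect over samples, with 71.1% of the 343 higher in December against 47% of the 1827. Those 201 and 343 rows were all among the 1827, in the same direction.

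**Figure D1:**
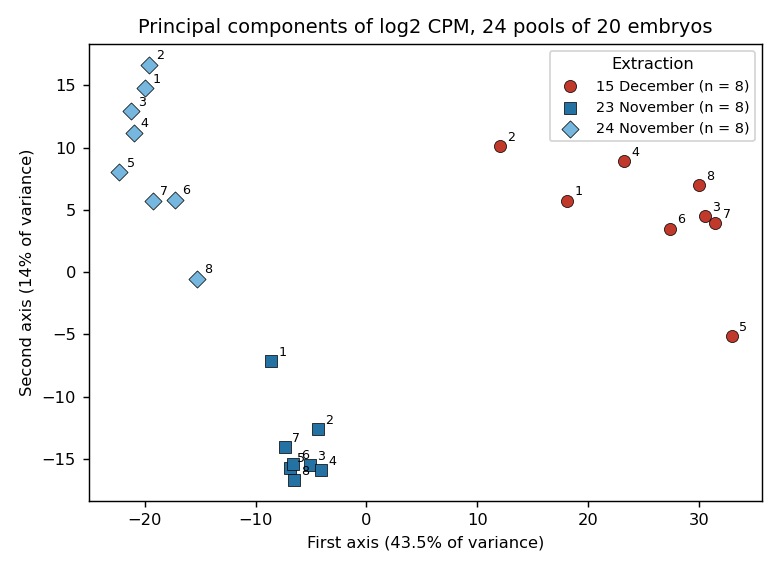
Position of the 24 pools of 20 embryos on the first and second principal components of log2 CPM over 3039 rows; each point is a sample, labelled with its number in the batch. The 8 December samples lie between 12.0 and 32.97 on the first axis, to the right of all 16 November samples.

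The first principal component, with 43.5% of the variance, parted December from November. December samples averaged 25.7 ± 7.38 on it (SD, n = 8), those of 23 November -6.21 ± 1.54 and those of 24 November -19.5 ± 2.25. The 3 batches did not overlap on this axis. December was also the most scattered batch along it: samples 2 and 1 lay at 12.0 and 18.1, nearest to November, and sample 5 at 32.97. The second component, with 14% of the variance, held 23 November at -14.1 ± 3.09, 24 November at 9.32 ± 5.65 and December between them at 4.81 ± 4.67.

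The largest changes are given in CPM after TMM scaling, for the 2 largest increases and 2 largest falls among rows beyond both November batches, without overlap of samples and with a mean of at least 20 CPM. Row 1093 ranged from 111 to 297 CPM in the 8 December samples with a median of 240 CPM, against 1.98 to 11.4 CPM in the 16 November samples with a median of 3.29 CPM. Every December sample exceeded every November sample, the lowest being December sample 1. The row was 56.8-fold higher in December (log2 fold change 5.83 ± 0.16 SE; edgeR adjusted p = 4.35e-25). Row 321 ranged from 55.1 to 88.3 CPM in December around a median of 68.1 CPM, against 2.06 to 16.1 CPM in November around a median of 7.34 CPM. It was 8.99-fold higher in December (log2 3.17 ± 0.16 SE; edgeR adjusted p = 1.07e-17), again without overlap.

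Row 1469 had 2.49 to 12.3 CPM in December with a median of 4.88 CPM, against 16.9 to 53.5 CPM in November with a median of 31.5 CPM. It fell 4.99-fold (log2 -2.32 ± 0.18 SE; edgeR adjusted p = 9.56e-13). The November days were themselves apart in this row, with means of 43.8 ± 6.26 CPM on 24 November and 24.2 ± 4.62 CPM on 23 November (SD, n = 8 each). Row 592 had 11.1 to 24.1 CPM in December with a median of 21.1 CPM, against 34.1 to 201 CPM in November with a median of 102 CPM, and fell 4.63-fold (log2 -2.21 ± 0.13 SE; edgeR adjusted p = 9.85e-16). Its November samples split without overlap into 133 to 201 CPM on 24 November and 34.1 to 70.5 CPM on 23 November. December was 7.92-fold below 24 November and 2.71-fold below 23 November.

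**Figure D2:**
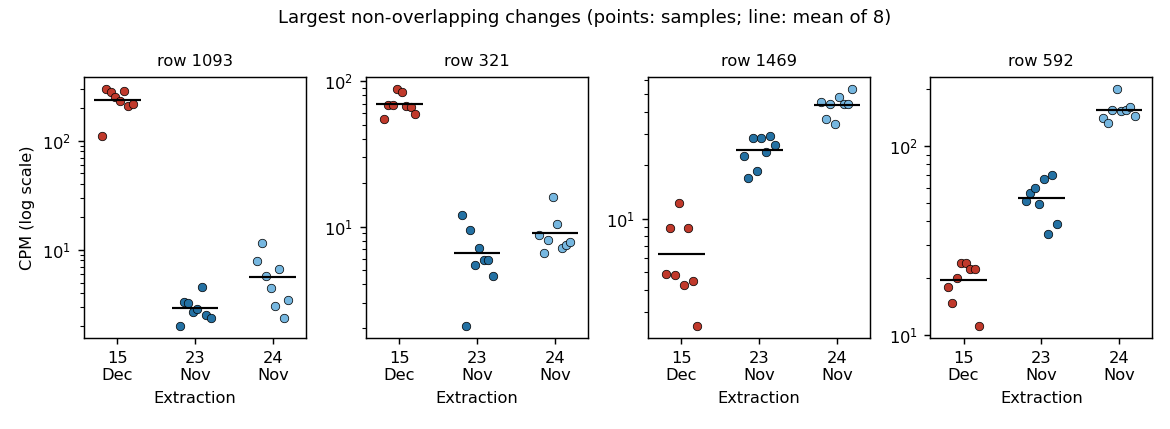
CPM (log axis) of rows 1093, 321, 1469 and 592 in pools of 20 by extraction date; points are samples and lines the mean of 8. In each row the 8 December points lie outside the range of the 16 November points, above it in rows 1093 and 321 and below it in rows 1469 and 592.

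Much larger counts stood behind the changes of the abundant rows, although their folds were small. By the change in mean CPM, rows 2323 and 2293 gained most and rows 2707 and 2079 lost most among the called rows. Row 2323, the row with the highest mean in the panel, ranged from 61800 to 80200 CPM in December with a median of 67800 CPM, against 40700 to 56700 CPM in November with a median of 47100 CPM. It was 1.46-fold higher in December (log2 0.55 ± 0.06 SE; edgeR adjusted p = 8.63e-10), with no overlap. Row 2293 ranged from 47100 to 56600 CPM in December around 51900 CPM, against 32500 to 42600 CPM in November around 36600 CPM, a 1.40-fold increase (edgeR adjusted p = 1.94e-11). These 2 rows alone took 6.08% and 4.54% of all counts in December and 4.99% and 3.91% in November, on average per sample. The folds depended on the scaling. With library totals in place of TMM factors, the log2 changes of rows 2323 and 2293 were 0.28 and 0.22, against 0.55 and 0.49. Those of rows 2707 and 2079 were -0.81 and -0.93, against -0.55 and -0.67.

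Row 2707 had 8800 to 11700 CPM in December with a median of 10500 CPM, against 12200 to 18900 CPM in November with a median of 15600 CPM, a 1.46-fold fall without overlap (edgeR adjusted p = 1.5e-08). Row 2079 had 4530 to 12700 CPM in December with a median of 7710 CPM, against 7790 to 18900 CPM in November with a median of 13200 CPM, and fell 1.60-fold (edgeR adjusted p = 7.78e-05). Here the ranges overlapped, and without the batch of 24 November the fall was no longer called (log2 -0.37, edgeR adjusted p = 0.0538).

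The balance of higher and lower rows changed with abundance when rows were split into 4 equal bins by mean CPM, a split chosen after seeing the data. The least abundant bin held 760 rows with means from 1.93 to 11.4 CPM over the 24 samples. Of these, 60 were higher (7.89%) and 377 lower (49.6%) in December, and the median log2 change was -0.60. Over all rows tested 28.2% were higher and 31.9% lower. This bin lies next to the filter on low counts. The filter kept a row that reached its minimum in as many samples as 1 batch holds, whichever batches these came from. November gave 16 samples and December 8, so rows high in November could enter more easily. The next bin, up to 34.8 CPM, had 124 higher (16.3%) and 310 lower (40.8%), with a median of -0.20. In the bin from 34.8 to 117 CPM 261 were higher (34.4%) and 163 lower (21.5%), with a median of 0.07. In the most abundant bin 413 were higher (54.3%) and 119 lower (15.7%), with a median of 0.16. Scaled by library totals, the medians of the 4 bins were -0.86, -0.46, -0.20 and -0.10, so the gradient had the same order but all 4 medians were below 0. The counts were then 39 higher and 502 lower in the least abundant bin, 57 higher and 479 lower in the second, 99 higher and 387 lower in the third, and 171 higher and 349 lower in the most abundant one, so the upper 2 bins turned from mostly higher to mostly lower.

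**Figure D3:**
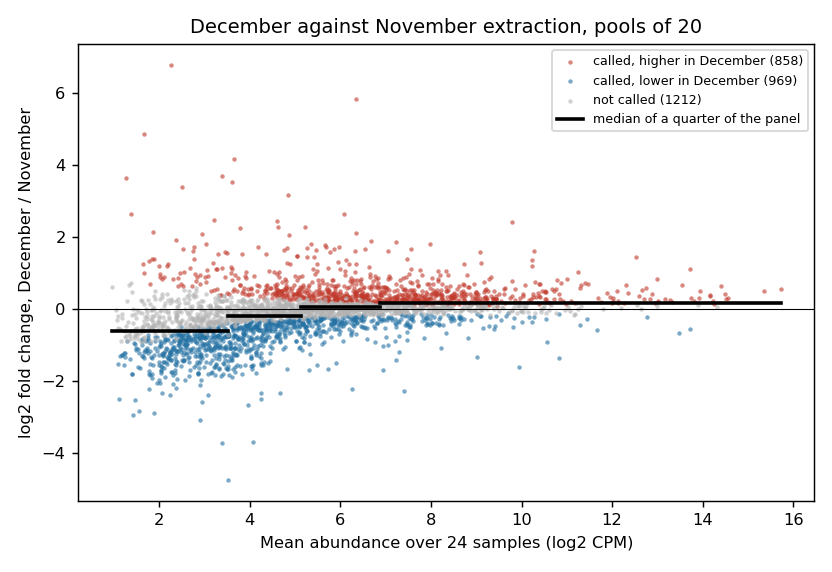
log2 fold change (December over November) against mean abundance (log2 CPM) for 3039 rows in pools of 20; colours mark called rows and black bars the median of each of 4 equal abundance bins. The bars step up from -0.60 in the least abundant bin to 0.16 in the most abundant one; with library totals as the scaling they run from -0.86 to -0.10.

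The November days showed a gradient of the opposite sign. From the least to the most abundant bin the median log2 change of 24 against 23 November was 0.50, 0.12, -0.10 and -0.16. December against 24 November gave -0.84, -0.23, 0.13 and 0.25, and December against 23 November -0.38, -0.16, 0.01 and 0.09. These contrasts share batches, so they are given side by side only.

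Fewer rows were detected in December. Rows with at least 5 counts numbered 2985 ± 51.7 in December (SD, n = 8) and 3068 ± 26.8 in November (n = 16), a difference of -83.1 (exact two-sided permutation p = 7.07e-05, adjusted over 3 measures 0.000212). December samples ranged from 2897 to 3060 and November samples from 3025 to 3110, so the ranges overlapped. December was below each November batch by itself, against 3051 ± 9.21 on 23 November (exact permutation p = 0.00218, adjusted 0.00327) and 3085 ± 28.4 on 24 November (exact p = 0.000466, adjusted 0.0014; n = 8 each). With all libraries thinned to the smallest one, at 3791022 counts, the difference was -111.

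The 10 most abundant rows of each sample took 28.1% ± 0.667 of the counts in December and 25.9% ± 1.42 in November (exact permutation p = 0.000451, adjusted 0.000677; n = 8 and 16). Against 23 November alone, at 24.6% ± 0.306, no samples overlapped (exact p = 0.000155, the smallest that 8 against 8 samples allow, adjusted 0.000465). Against 24 November, at 27.1% ± 0.916, the ranges overlapped (exact p = 0.0258, adjusted 0.0387; n = 8). The TMM factors were 0.886 ± 0.0456 in December and 1.06 ± 0.0525 in November, and 1.07 on 23 November and 1.06 on 24 November, where the share in the 10 rows differed. The part of this shift in composition in the fall of rare rows was not tested.

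**Figure D4:**
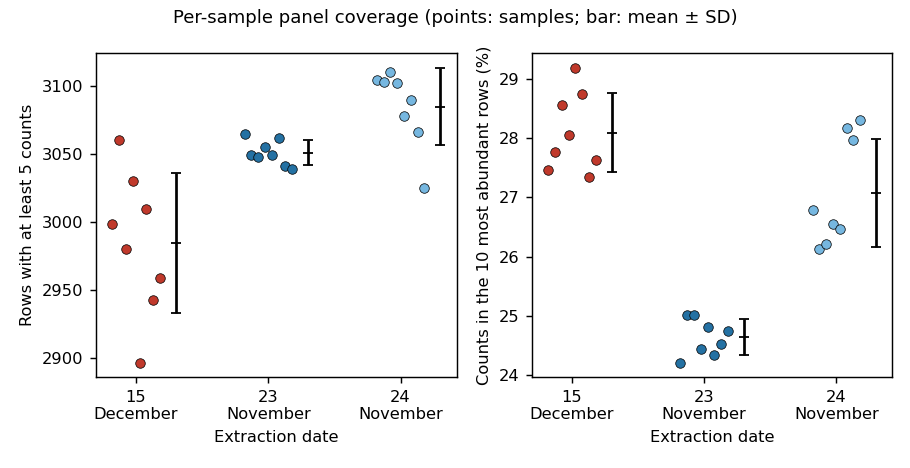
Rows with at least 5 counts (left) and share of counts in the 10 most abundant rows of each sample in percent (right) by extraction date; points are samples, bars the mean ± SD of 8; the vertical axes do not start at 0. December samples have the fewest detected rows on average (2985) and the highest share in abundant rows (28.1%).

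Pools of 10 embryos offer a comparison with no library in common. Their November batches were extracted on the same days, 23 and 24 November, from an exposure of 2 to 7 November. Their December batch was extracted on 18 December, the day its own exposure of 13 to 18 December ended. In pools of 10 December and November thus differ in exposure as well as in extraction. Pools of 20 share the labelled exposure dates, but extraction date, well column, index and the time since the exposure ended differ. That time was 0 days in December and 16 and 17 days in November in pools of 10. In pools of 20 it was 36 days in December and 14 and 15 days in November, so the order was reversed. Fitted together over 48 samples and 3096 rows, 1684 rows were called in pools of 20 (54.4%) and 2470 in pools of 10 (79.8%). The median absolute log2 change was 0.34 in pools of 20 and 0.75 in pools of 10.

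Rows called in both in the same direction numbered 1299, which is 77.1% of those called in pools of 20 and 52.6% of those called in pools of 10, and 150 were called in opposite directions. Of 1124 rows called higher in December in pools of 10, 52% were called higher in pools of 20, against 24.4% of all rows. Of 1346 rows called lower in pools of 10, 53% were called lower in pools of 20, against 30% of all rows. Across the 3096 rows, which are not independent replicates, the changes correlated at a Pearson r of 0.718, as a description. In 2449 rows (79.1%) the change was smaller in size in pools of 20. The difference between the changes was itself called by edgeR in 1885 rows (60.9%), 1000 with the higher change in pools of 20 and 885 with the lower.

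**Figure D5:**
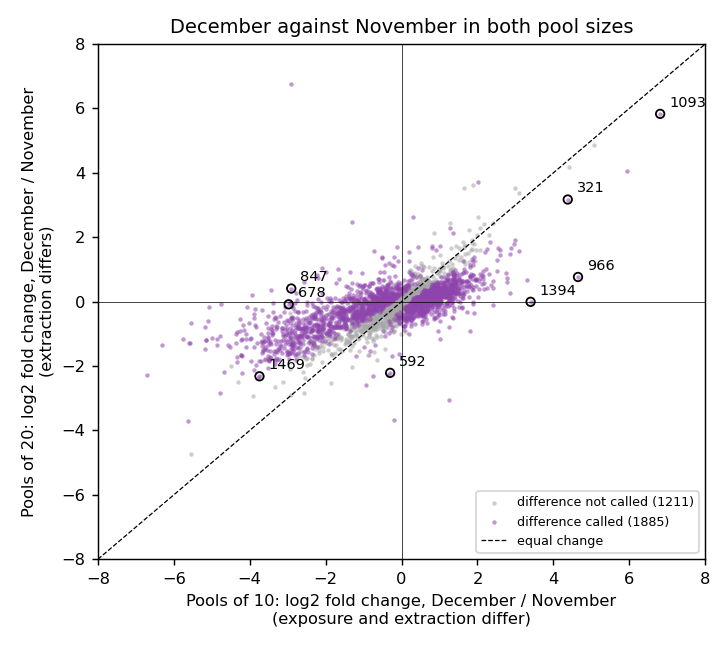
log2 fold change (December over November) in pools of 20 (vertical) against pools of 10 (horizontal) for 3096 rows, from 48 samples; purple rows have a called difference and the dashed line marks equal change. Row 1093 is high in both pool sizes, while rows 966, 1394, 678 and 847 have log2 changes between -0.08 and 0.77 on the vertical axis and between -2.97 and 4.65 on the horizontal one.

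Row 1093 was higher in December in both pool sizes. In the joint scaling it had 112 to 299 CPM in December pools of 20 (median 241), against 1.99 to 11.5 CPM in November pools of 20 (median 3.31). In pools of 10 it had 226 to 624 CPM in December (median 404) and 1.84 to 5.12 CPM in November (median 3.6). Over all 12 batches of the series, on a scaling of all 96 samples, its mean was 213 CPM in the December batch of pools of 20, 2.62 to 5.25 CPM in the 4 batches extracted in November, and 87.9 to 871 CPM in the other 7 batches extracted in December. Single December samples of those 7 batches were as low as 5.1 CPM, in a batch of single embryos whose 8 samples ranged up to 614 CPM around the mean of 87.9 CPM. For row 321 the same scaling gave a mean of 63.4 CPM in December pools of 20, 5.86 to 10.0 CPM in the 4 November batches and 101 to 206 CPM in the other 7, where the lowest sample, again a single embryo, had 1.74 CPM. Rows 1469 and 592, lower in December pools of 20, did not part fully by month over the series. Row 1469 averaged 5.8 CPM in December pools of 20 and 21.5 to 66.7 CPM in the 4 November batches. Its means in the other 7 were 1.7 to 71.6 CPM, the highest in single embryos of 18 December. Row 592 averaged 17.8 CPM in December pools of 20 and 45.4 to 145 CPM in the 4 November batches. Its means in the other 7 were 30.9 to 87.8 CPM.

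Other rows changed much more in pools of 10. Among rows with a mean of at least 20 CPM over the 48 samples, rows 966 and 1394 had the lowest difference (pools of 20 minus pools of 10), and rows 847 and 678 the highest. Row 966 had 20 to 66.5 CPM in December pools of 20 (median 34.3), against 11.2 to 32.8 CPM in November pools of 20 (median 24.8). In pools of 10 it had 345 to 571 CPM in December (median 479) and 8.99 to 30.5 CPM in November (median 15.9). The log2 changes, both called, were 0.77 in pools of 20 and 4.65 in pools of 10, a difference of -3.88 ± 0.28 (SE; edgeR adjusted p = 6.02e-17). In row 1394 December pools of 20 had 31.6 to 48.8 CPM (median 44.3), against 27 to 56 CPM in November (median 43.5). December pools of 10 had 364 to 453 CPM (median 426), against 23.9 to 87.6 CPM in November (median 34.1). The difference of the log2 changes was -3.40 ± 0.19 (SE; edgeR adjusted p = 1.35e-20), and the change in pools of 20 alone, at -0.01, was not called (edgeR adjusted p = 0.956).

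Row 678 had 746 to 1430 CPM in December pools of 20 (median 1070), against 896 to 1540 CPM in November pools of 20 (median 1170). December pools of 10 had 115 to 186 CPM (median 146), against 785 to 1480 CPM in November (median 1180), and the difference was 2.89 ± 0.14 (SE; edgeR adjusted p = 6.59e-23). Row 847 had 27.8 to 57.5 CPM in December pools of 20 (median 38.7), against 18.4 to 43.3 CPM in November pools of 20 (median 31.5). December pools of 10 had 0.34 to 9.5 CPM (median 4.22), against 21.2 to 69.4 CPM in November (median 34.9), with log2 changes of opposite sign, 0.41 in pools of 20 and -2.91 in pools of 10, and the difference was 3.31 ± 0.26 (SE; edgeR adjusted p = 1.59e-15). In these 4 rows December pools of 20 overlapped November pools of 20, while December pools of 10 did not overlap November pools of 10. Within pools of 20 alone, rows 966 and 847 were still called higher in December (edgeR adjusted p = 0.000409 and 0.0026), and row 678 was not called (edgeR adjusted p = 0.402). Row 847 was not called against 24 November by itself (log2 0.22, edgeR adjusted p = 0.148). It was also higher on 24 than on 23 November (log2 0.38, edgeR adjusted p = 0.0225).

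The whole panel gave an intermediate place to the December pools of 20. Each sample was placed on the line from the mean of the November pools of 10, set to 0, to the mean of the December pools of 10, set to 1, over 3096 rows. December pools of 20 lay at 0.556 ± 0.109 (SD, n = 8), from 0.357 to 0.689. Pools of 20 of 23 November lay at 0.252 ± 0.0304 and those of 24 November at 0.0476 ± 0.0567. The 6 batches of 1 and 5 embryos, exposed and extracted in December, averaged 0.765 to 1.05. Their lowest samples, at 0.557 in a batch of pools of 5 and 0.641 in a batch of single embryos, lay inside the range of December pools of 20. The November pools of 10, whose mean was set to 0, averaged 0.153 on 23 November and -0.153 on 24 November. No sample of the November pools of 20 reached the lowest December pool of 20.

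Rows that pools of 10 picked out as differing between the November days were also placed in pools of 20. Pools of 10 called 1595 rows between these days (51.5%), and in this fit pools of 20 called 1383 rows in December against 23 November (44.7%) and 1773 against 24 November (57.3%). Of 842 rows higher on 24 than on 23 November in pools of 10, 471 (55.9%) were lower in December in pools of 20 and 82 (9.74%) higher, where all rows gave 30% lower and 24.4% higher. In pools of 20 their median log2 change of 24 against 23 November was 0.50. For December it was -0.80 against 24 November, where 66.5% were lower (29.8% of all rows). Against 23 November it was -0.31, where 34% were lower (25.2% of all rows). Of 753 rows lower on 24 November in pools of 10, 297 (39.4%) were higher in December in pools of 20 and 117 (15.5%) lower. Their median log2 change of 24 against 23 November in pools of 20 was -0.36. For December it was 0.31 against 24 November, where 61.5% were higher (27.5% of all rows), and -0.05 against 23 November. In both sets the changes against 24 November and against the November mean thus contain the difference between the November days. Against 23 November 147 of the 753 were higher (19.5%), a share close to the 19.4% of all rows, and 224 were lower (29.7%, against 25.2% of all rows).

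A few rows set the December pools of 20 apart from every other batch of the series, in a comparison chosen after seeing the data. With all 96 samples and 12 batches in 1 edgeR fit, 12 of 3108 rows (0.386%) were called higher and 3 (0.0965%) lower against each of the 11 other batches. The 12 include row 1328, whose call has a limit given below. Rows 1328, 2331 and 2105 had all 8 samples above all 88 other samples, and no row had all 8 below. Row 1328 held 470 counts over the 8 December samples, from 16 to 99 a sample (3.34 to 18.3 CPM in this scaling), against 9 counts over the 16 November pools of 20, of which 12 had none. Over all 88 other samples it held 34 counts, with 73 samples at 0 and at most 6 counts in any. It passed the filter on low counts only through the December pools of 20, so its call gives no support beyond these counts. The December batches of other pool sizes shared this low level, at 0 to 0.079 CPM in batch means.

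Row 2331, an abundant row, ranged from 13000 to 15600 CPM in December pools of 20, against 6390 to 12200 CPM in the 88 other samples, and was at least 1.43 times the fitted level of each other batch (largest edgeR adjusted p = 5.54e-07). Row 2105 ranged from 366 to 401 CPM, against 164 to 358 CPM elsewhere (largest edgeR adjusted p = 0.00498). The rows lower than in each other batch were 909, 975 and 1192. Row 909 averaged 21.7 ± 3.03 CPM in December pools of 20 (SD, n = 8), against 33.6 to 73.7 CPM in the 11 batch means (largest edgeR adjusted p = 0.0184). Row 975 averaged 20.6 ± 4.01 CPM, against 37.4 to 151 CPM (largest edgeR adjusted p = 0.0427), and row 1192 averaged 28.2 ± 5.04 CPM, against 44.8 to 120 CPM (largest edgeR adjusted p = 0.0204). Scaled by library totals, 2 rows were higher and 12 lower, of which 3 were among those 15. Of the 3 other settings run, rows 2331 and 2105 were called higher under all but library totals. Row 1328 was called under each, but these calls rest on the same counts and add no support.

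Measures of spread within a batch ranked the batches differently. The common biological coefficient of variation within the batch was 17.6% in December, 14.4% on 23 November and 17.8% on 24 November, over 3039 rows and 8 samples each. The median SD of log2 CPM was 0.193 in December, 0.177 on 23 November and 0.211 on 24 November over the 2305 rows with a mean count of at least 50. Of these rows 154 had an SD above 0.5 in December, 52 on 23 November and 63 on 24 November, and an SD above 1 was found in 11 rows in December, 2 on 23 November and 7 on 24 November. Without December sample 3 the December coefficient of variation was 18.1%, above that of 24 November. A limma test on absolute deviations from the batch mean called 22 of these rows (0.954%), 21 more variable in December and 1 less. Rows entered the SD counts and this test by a mean count over all samples, most of them from November. A row that fell in December was thus measured there at lower counts, with more sampling noise. How far this shaped these numbers was not tested.

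The greatest gains in spread among the called rows were in rows 822 and 3073, both lower in December. Their December counts were low, from 4 to 71 in row 822 and from 9 to 46 in row 3073. Both rows reached the minimum mean count for this test through their November counts. Their SD of log2 CPM in December was thus taken at counts with more sampling noise than in November. They were not tested with a minimum mean count of 100. Row 822 ranged from 1.00 to 16.1 CPM in December with a median of 6.68 CPM, against 11.3 to 29.1 CPM in November with a median of 20.3 CPM. Its SD of log2 CPM was 1.08 in December, 0.21 on 23 November and 0.12 on 24 November (limma adjusted p = 0.0392). Row 3073 ranged from 2.26 to 11.3 CPM in December with a median of 4.64 CPM, against 10.7 to 26.2 CPM in November with a median of 16.7 CPM, with SDs of 0.73 in December, 0.17 on 23 November and 0.16 on 24 November (limma adjusted p = 0.0278). Row 1222 was the less variable one, with 277 to 323 CPM in December and 393 to 750 CPM in November, and SDs of 0.06 in December, 0.14 on 23 November and 0.28 on 24 November (limma adjusted p = 0.0478). The number of called rows rested on few libraries: it was 7 without December sample 2, 11 without sample 1 or without sample 5, 35 without sample 7, and 2 without samples 5 to 8 of 23 November. Row 822 was no longer called without December sample 3 or 5 (limma adjusted p = 0.0554 and 0.0923), row 1222 without any of samples 1, 2, 3, 4, 5 and 8 (limma adjusted p = 0.0554 to 0.0858), and none of the 3 rows without samples 5 to 8 of 23 November (limma adjusted p = 0.109 to 0.214).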

How the data were processed

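The authors deposited raw read counts, 3183 rows by 96 sample columns, as whole numbers with no normalization. Upstream tools, per the submitters' processing notes and without roles, are DESeq2 1.31.15, RSEM 1.3.3, STAR 2.7.10a, fastp 0.23.2 and bcl2fastq 2.20. Build, annotation and counting step: not given in the sources used here. Depth was 3791022 to 5870280 counts a sample in pools of 20 and 3336312 to 6441627 over all 96 samples. Groups came from the sample titles. After edgeR's filter on low counts 144 rows of pools of 20 were not tested, 9 of them at 0 in all 24 samples. R 4.3.3 and edgeR 4.0.16 fitted the counts after TMM scaling and tested them by quasi-likelihood, with Benjamini-Hochberg adjustment over all rows tested and a threshold of 0.05. Log2 CPM used a prior count of 2. Spread was tested with limma 3.58.1, and DESeq2 1.42.0 was an alternative. Sample-level values were compared with exact permutation tests. At most 2 rows in each direction were named per comparison: the largest non-overlapping changes, the largest changes in CPM, the largest changes in spread and the largest differences from pools of 10, the first and last with a mean of at least 20 CPM. Rows apart from all other batches were chosen after their values were seen. The samples, tests and naming rule were chosen with earlier results of these data known. Alternatives were other scalings, filters, tools, a replicate block, batches as replicates, and samples or batches left out. The tests were also run on simulated counts with no difference between batches beyond the changes put in. Those runs cannot show how many calls batch differences alone would give.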

Additional observations from a re-analysis of the deposited data

Results flagged for a closer look

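By edgeR's test of the difference, the change of December against November differed between pools of 20 and pools of 10 in 1885 of 3096 rows (60.9%). Among them were 13 of the 15 rows named by rule. Rows 847, 678, 966 and 1394 were named because this difference was called and most extreme, so their calls were fixed by the choice. The other named rows were also picked for extreme values, so the 13 are no result about the named rows. Given as pools of 20 minus pools of 10 on the log2 scale, the difference was -0.98 in row 1093, -1.21 in row 321, 1.42 in row 1469, -1.91 in row 592, -0.72 in row 2323, -0.32 in row 2293, -1.34 in row 2079, 1.93 in row 822, 1.34 in row 3073, 3.31 in row 847, 2.89 in row 678, -3.88 in row 966 and -3.40 in row 1394. Rows 1093 and 321 rose and row 1469 fell in both pool sizes, by less in pools of 20. Row 592 fell in pools of 20 (log2 -2.21) and had -0.30 in pools of 10, which was not called (edgeR adjusted p = 0.217). Row 2079 fell in pools of 20 (log2 -0.67) and rose in pools of 10 (log2 0.67; edgeR adjusted p = 0.000131).

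A sample lay far from the other 7 of its batch in 2 of 63 sets of 8 values examined, where chance gives about 1 in 20. Both were sample 4 of the 24 November batch, at 16.1 CPM in row 321 and 201 CPM in row 592. Both values are on the side away from December in row 592 and towards December in row 321.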

How the results depend on the processing

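Of the 219 values of the rows named by rule under other settings, 205 were on the same side of the threshold as reported. The call was lost in 14 and 0 changed direction. These rows were picked among called rows for the largest changes, and the settings refit mostly the same samples. Keeping the call was thus favoured by the choice, and this share does not describe the panel. The number of rows called in December against November was 201 on batch sums, where December is 1 unit. It was 343 with the batch as a random effect over single samples, where row 2079 was not called (limma adjusted p = 0.12). Under the other settings, which were DESeq2, its size factors, library totals, no filter, no batch term, each November batch left out, samples 5 to 8 of 23 November left out, thinned counts and December samples 1 and 2 left out (the last 2 chosen after seeing the data), the count was within 1.5 times 1827; without each December sample in turn it was 1718 to 1826. A similar count need not hold the same rows. With library totals 1335 of the 1827 rows were called in the same direction and 29 in the opposite one. Of 1773 of them tested without the batch of 24 November, 1307 were called in the same direction and 6 in the opposite one. Of 1802 tested without the batch of 23 November, 1487 were called in the same direction and 8 in the opposite one. DESeq2 called 1813 of the 1827 in the same direction. The number of rows differing in spread was 39 with a mean count of at least 20, 5 with at least 100 and 2 without samples 5 to 8 of 23 November, and 7 to 35 without each December sample. The cause was not tested. Sample numbers did not pair the batches: same-numbered samples correlated at -0.0921 to 0.189 over 24 pairs (median -0.018), and 2 of 24 samples correlated best with their own number. With the sample number as a replicate block 1801 rows were called in December against November, 1053 beyond both batches and 1896 in the difference from pools of 10. Depth limits rows near 1 CPM: 3 counts equal up to 0.791 CPM.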
